A study of Mus musculus with 7 samples.

Results

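Glucocorticoid receptor occupancy was examined around 8 genes of the circadian clock (Per1, Per2, Cry1, Nr1d1, Nr1d2, Bhlhe40, Dbp and Nfil3) in mouse embryonic fibroblasts. A locus was taken as the 100 kb on either side of a point given in mm9 coordinates as the approximate transcription start of each gene. The points are rounded to 10 kb, so positions within 10 kb of a point cannot be placed before or after the start. The 8 windows of 200 kb held 55 receptor sites, of 35316 in the genome. A site is a run of peak summits, from any of the 7 libraries, with at most 200 bp between neighbours.

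The data are lists of receptor summits from chromatin immunoprecipitation followed by sequencing (ChIP-seq) with a laboratory-made antibody against the receptor, NR3C1. Fibroblasts came from embryos of day 14 to 17 and were used between passage 4 and 11. Wild-type cells received ethanol vehicle (1 library, pooled for lack of material) or the synthetic glucocorticoid dexamethasone (2 libraries), for 1 h. Cells without Klf15, a gene for a Krüppel-like transcription factor, received vehicle (2 libraries) or dexamethasone (2 libraries) for the same time. Nothing in the labels says whether the libraries of a group are separate cultures, and the genotype was not checked here.

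The mammalian clock is a feedback loop of transcription. The activators CLOCK and BMAL1 bind E-box elements and switch on the Per and Cry genes, whose proteins then inhibit them. The nuclear receptors REV-ERBα and REV-ERBβ, encoded by Nr1d1 and Nr1d2, repress the activator side, and BHLHE40 competes for E-boxes. DBP and NFIL3 are bZIP factors with opposite actions on D-box elements of output genes. Glucocorticoids are a known resetting signal for the clocks of peripheral tissues, and Per1 is among the classic glucocorticoid-induced genes.

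The promoters of Per1 and Cry1 are shown because both carry the E-box of the loop. Among the Per and Cry genes examined here, their windows held the most and the fewest receptor sites (12 and 1). The RefSeq table (GRCm38.p6) held 7 promoters of 6 of the genes, each from 250 bases before to 50 bases after a start. Per2 and Bhlhe40 had no entry. Capitals mark the E-box CACGTG, which reads the same on both strands. The first Per1 promoter is chr11:69098699-69098998 on the + strand, the second is chr11:69099902-69100201 on the + strand, and the Cry1 promoter is chr10:85185005-85185304 on the - strand. These GRCm38.p6 positions cannot be set against the mm9 summits.

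Per1 first start: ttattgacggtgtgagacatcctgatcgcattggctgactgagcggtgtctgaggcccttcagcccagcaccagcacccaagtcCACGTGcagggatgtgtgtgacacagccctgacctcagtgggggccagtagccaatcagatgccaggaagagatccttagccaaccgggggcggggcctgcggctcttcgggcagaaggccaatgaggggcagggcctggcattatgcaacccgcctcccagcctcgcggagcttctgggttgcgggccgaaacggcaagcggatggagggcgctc

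Per1 second start: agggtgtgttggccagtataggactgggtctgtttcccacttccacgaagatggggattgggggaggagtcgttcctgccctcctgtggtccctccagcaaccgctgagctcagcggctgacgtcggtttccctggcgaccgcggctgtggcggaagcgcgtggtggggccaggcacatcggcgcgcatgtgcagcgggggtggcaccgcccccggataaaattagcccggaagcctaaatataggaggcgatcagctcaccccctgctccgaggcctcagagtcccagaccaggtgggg

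Cry1: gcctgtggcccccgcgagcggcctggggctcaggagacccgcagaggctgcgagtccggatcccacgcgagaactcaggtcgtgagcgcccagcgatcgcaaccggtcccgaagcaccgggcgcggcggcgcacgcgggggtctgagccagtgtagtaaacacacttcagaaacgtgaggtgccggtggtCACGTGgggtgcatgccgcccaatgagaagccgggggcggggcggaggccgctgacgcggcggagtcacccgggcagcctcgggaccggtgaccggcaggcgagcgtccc

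The E-box began at position -166 of the first Per1 start and at position -60 of the Cry1 start, counting back from the first transcribed base. It was in 2 of the 7 clock promoters, and 7.15% of all 32851 promoters of the table hold it. The 6 bases AGAACA, an arm of the palindromic element that the receptor binds, were searched on both strands. None of the 7 clock promoters held this arm, against 19.0% of all promoters. The full element (AGAACA, any 3 bases, then TGTTCT, which contains the arm) was in 3 promoters of the table and in none of the 7. The D-box TTATGTAA, searched on both strands, was in 0 of the 7 and in 0.938% of all. No match says only that these letters are not in a window of 300 bases.

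Whole-list values set the scale for these loci. The lists held 7325 to 10034 summits with vehicle and 15628 to 20169 with dexamethasone. Read depth is unknown from these files, and list length depends on it. The first Klf15-/- vehicle list stood apart, with 414 neighbouring summit pairs under 200 bp apart against 4 or fewer in the others. It alone held 2 of the 55 sites. The genotypes also differed on chromosome Y, with 75 to 197 summits in each Klf15-/- list and 1 or 2 in each wild-type list. A difference between genotypes at these loci cannot be told apart from one that goes with this chromosome Y difference.

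Summed over the 8 windows, all 4 dexamethasone lists held more receptor summits than any vehicle list, also as a share of the list; single loci did not all follow the sum. The wild-type vehicle list had 11 summits in the 8 windows, and the Klf15-/- vehicle lists had 7 and 7. The wild-type dexamethasone lists had 27 and 30, and the Klf15-/- dexamethasone lists 33 and 26. Per 1000 summits of the list, this was 1.10 in wild-type vehicle, 0.956 and 0.865 in Klf15-/- vehicle, 1.73 and 1.77 in wild-type dexamethasone, and 1.65 and 1.29 in Klf15-/- dexamethasone. The vehicle and dexamethasone libraries did not overlap in these windows, but they did in windows of 50 kb. At Nfil3, summits per 1000 were 0.498 in wild-type vehicle and 0.576 and 0.650 in wild-type dexamethasone, but 0.546 and 0.371 in Klf15-/- vehicle and 0.400 and 0.397 in Klf15-/- dexamethasone, a mean change of -0.0602. The Klf15-/- values overlapped there, and also at Bhlhe40, with 0.273 and 0.371 in vehicle and 0.50 and 0.297 in dexamethasone. Cry1 had no Klf15-/- summit in either condition, and Nr1d2 had none in wild-type dexamethasone. Over the 8 windows together, the mean was 1.61 ± 0.220 (SD, n = 4) with dexamethasone and 0.972 ± 0.116 (SD, n = 3) with vehicle. The difference of 0.637 gave p = 0.0571 in an exact two-sided permutation test with the genotypes pooled, the smallest p that 4 against 3 libraries allow, so it cannot pass 0.05. Within wild type the means were 1.75 ± 0.0316 (SD, n = 2) against 1.10 (n = 1), and within Klf15-/- they were 1.47 ± 0.255 (SD, n = 2) against 0.911 ± 0.0637 (SD, n = 2). Each list rests on few summits, and the exact 95% intervals, which cover counting error only, ranged from 0.348 to 1.97 over the vehicle lists and from 0.842 to 2.53 over the dexamethasone lists.

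**Figure D1:**
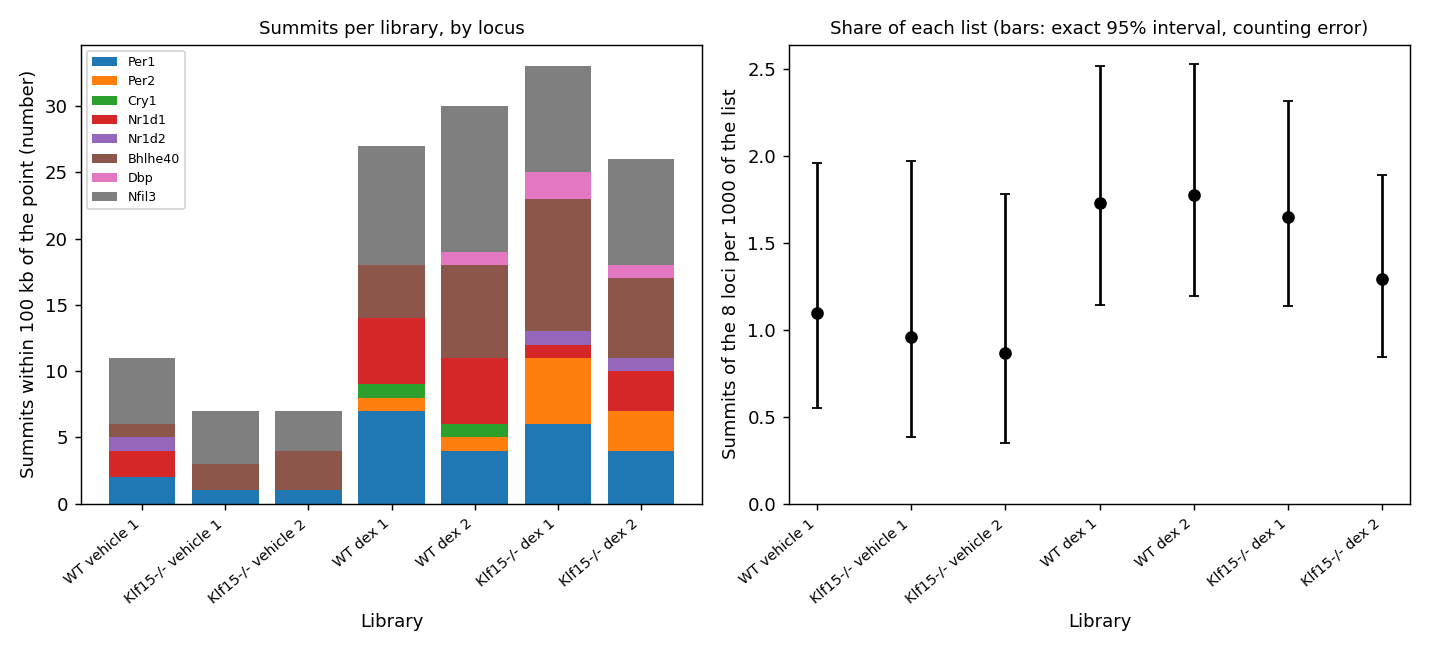
Left, the number of summits within 100 kb of the 8 points in each library, stacked by locus. Right, the same total per 1000 summits of the list with its exact 95% binomial interval; the 3 vehicle lists lie between 0.865 and 1.10 and the 4 dexamethasone lists between 1.29 and 1.77.

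The sites were unevenly divided among the genes. Nfil3 had 13 sites, Per1 12, Bhlhe40 11, Nr1d1 8, Per2 6, Dbp 2, Nr1d2 2 and Cry1 1. For scale, the genome was cut into 13213 fixed tiles of 200 kb, of which 63.3% held at least 1 site and 32.9% at least 1 site of all 4 dexamethasone lists. All 8 clock windows held a site, and 5 held a site of all 4 dexamethasone lists. Tiles with as many sites as Nfil3 or more were 1.98% of all, for Per1 2.72% and for Bhlhe40 3.79%, while for Cry1 they were 63.3%. These counts include sites of a single list, which were 7 of the 12 at Per1. For sites of all 4 dexamethasone lists, the shares were 1.29% for Nfil3, 4.65% for Bhlhe40 and 16.4% for Per1. They were 32.9% for Per2 and for Nr1d1. The tiles include stretches that cannot be mapped and, unlike the windows, are not centred on genes. The windows also contain other genes: in RefSeq order Per1 lies between Vamp2 and Hes7, Per2 between Hes6 and Traf3ip1, Nr1d1 between Thra and Msl1, and Dbp between Car11 and Sphk2. No site was assigned to a gene beyond its window.

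Of the 55 sites, 14 were held by all 4 dexamethasone lists (25.5%, exact 95% interval 14.7 to 39.0%), against 25.4% of all sites in the genome. A single list held 23 of the 55, against 38.7% of all sites. Both shares are near those of the genome. The 14 sites divided into 6 at Nfil3, 4 at Bhlhe40, 2 at Per1, 1 at Per2 and 1 at Nr1d1. No site at Cry1, Nr1d2 or Dbp was in all 4. The Bhlhe40 count of 4 was 2 with summits above the median score of their list and 1 with lists of equal length, and Dbp had 1 such site without the first wild-type dexamethasone library. Replicates of dexamethasone shared 22 of 35 clock sites in wild type and 22 of 37 in Klf15-/-. The Klf15-/- vehicle replicates shared 3 of 11. As fractions these were 0.629, 0.595 and 0.273, near the 0.593, 0.589 and 0.304 over all sites of the genome.

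**Figure D2:**
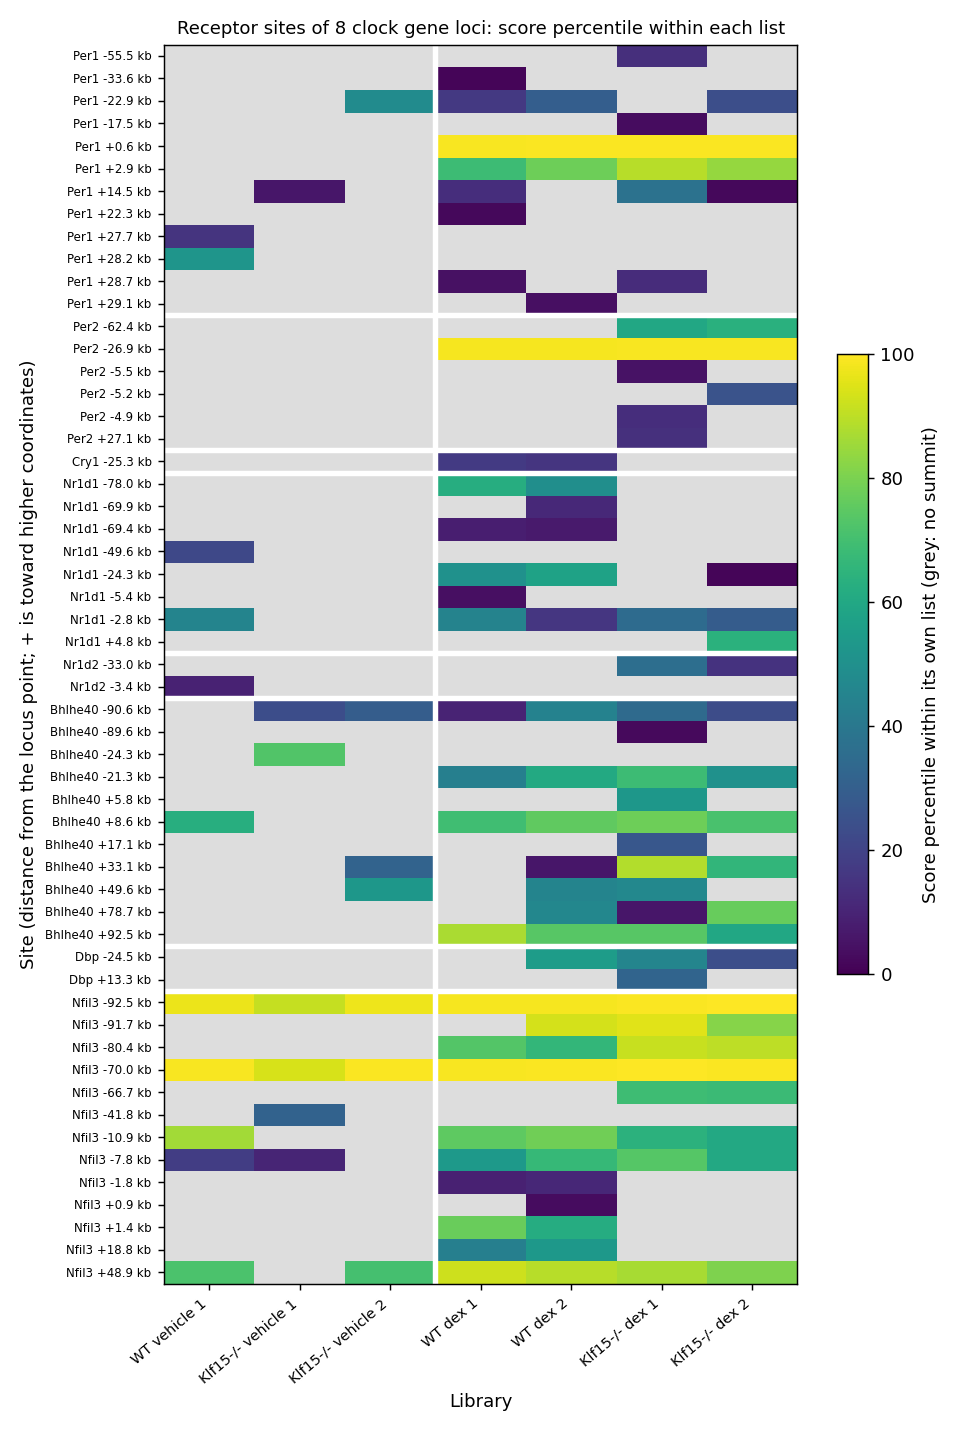
Each row is a site, labelled with its distance in kb from the locus point, and each column a library; colour is the percentile of the site's score within that library's own list, and grey means no summit. Per1 at 0.6 kb and Per2 at -26.9 kb are bright in the 4 dexamethasone columns and grey in the 3 vehicle columns, while Nfil3 at -92.5 and -70.0 kb is bright in all 7.

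Scores of the authors' peak caller are given here as percentiles within a list, from 0 to 100, where 100 is the strongest summit. Lists of different length are ranked separately, so a difference in percentile between lists does not show a change in occupancy. In a bulk culture, occupancy in fewer cells and weaker occupancy per cell cannot be told apart.

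At Per1, which encodes a core inhibitor of the loop, the leading site lay 0.584 kb from the point, at 68910572 to 68910596 on chromosome 11. It stood at percentiles 98.8 and 99.4 in the wild-type dexamethasone lists and at 99.4 and 99.4 in the Klf15-/- ones. No vehicle list had a summit there, and the nearest vehicle summit was 14.0 kb away. Among the 2774 sites of the genome held by all 4 dexamethasone lists without a vehicle summit, it ranked 41st by its lowest percentile. The summits of the 4 lists fell within 25 bp, against a median extent of 76 bp among those 2774 sites. By its lowest percentile, this was the highest of the clock sites without a vehicle summit.

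The other Per1 site of all 4 dexamethasone lists lay 2.34 kb further on, at 68912909 to 68912933. Its percentiles were 68.5 and 78.1 in the wild-type lists and 89.3 and 84.3 in the Klf15-/- lists, again with no vehicle summit. The remaining 10 sites of the Per1 window were weaker, at percentile 52.3 or below in any list. Of these, 2 were held by 3 dexamethasone lists and a Klf15-/- vehicle list: 1 at 22.9 kb and 1 at 14.5 kb from the point. The wild-type vehicle list alone had 2 others, at 27.7 and 28.2 kb, towards Hes7 and the Alox genes. From the site at 28.2 kb, the nearest dexamethasone summits were 0.558 kb away in wild type and 0.467 kb in Klf15-/-. The Per1 window thus had vehicle summits, but none at its leading sites.

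At Per2, the paralogue of Per1, the leading site lay 26.9 kb from the point towards lower coordinates, at 93333065 to 93333095 on chromosome 1. Its percentiles were 98.6 and 98.8 in the wild-type lists and 99.2 and 99.0 in the Klf15-/- lists. It ranked 49th among the 2774 sites named above, and its summits fell within 31 bp. The nearest vehicle summit was 84.3 kb away, and the whole Per2 window had none. Of the 6 clock sites in that class, the Per1 and Per2 leaders were the 2 at or above percentile 90 in all 4 lists, a bound set after the values were seen, and 8.11% of the 2774 sites meet it. Next to each other, the leading sites of Per1 and Per2 differed by less than 1 percentile in every list.

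Per2 had 5 further sites, all found in Klf15-/- dexamethasone lists and in no wild-type list. The site at 93297609 to 93297690, 62.4 kb below the point, was in both Klf15-/- lists at percentiles 60.1 and 63.3. Wild-type dexamethasone lists held no summit nearer to it than 35.4 kb. Among sites of both Klf15-/- lists with a lower percentile between 60 and 80, 12.3% lacked a wild-type dexamethasone summit. The other 4 were each in a single list, at percentiles of 4.96 to 25.7; 3 of them lay 4.93 to 5.46 kb below the point, within 1 kb of each other. Chromosome 1 as a whole made up 7.29% and 7.30% of the summits of the Klf15-/- dexamethasone lists and 6.58% and 6.53% of the wild-type ones. The part of this difference in the Per2 counts was not tested.

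Cry1, whose protein is a partner of the PER proteins, had a single site in its window, the fewest of the 8 genes. It lay 25.3 kb downstream of the point, at 84624645 to 84624733 on chromosome 10. Both wild-type dexamethasone lists held it, at percentiles 16.9 and 15.5. No vehicle list and no Klf15-/- list did, and the nearest Klf15-/- dexamethasone summit was 210 kb away. Among sites of both wild-type lists with a lower percentile of at most 20, 27.7% lacked a Klf15-/- dexamethasone summit. Chromosome 10 made up 7.75% and 7.44% of the wild-type dexamethasone summits and 6.30% and 6.12% of the Klf15-/- ones. Whether the Cry1 site follows that difference was not tested.

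Nr1d1 encodes REV-ERBα and lies next to Thra, the gene of a thyroid hormone receptor. The site nearest its start point, at 98637206 to 98637288 on chromosome 11, was 2.75 kb away. It was in all 4 dexamethasone lists, at percentiles 44.9 and 15.9 in the wild-type lists and 34.9 and 29.1 in the Klf15-/- lists. The wild-type vehicle list also held it, at percentile 45.1, and no Klf15-/- vehicle list did. With this site included, the Nr1d1 window had 5 and 5 summits in the wild-type dexamethasone lists and 1 and 3 in the Klf15-/- ones. A site 78.0 kb downstream of the point had percentiles 62.4 and 49.3 in wild type, and a site 69.4 kb downstream had 8.30 and 7.07. The nearest Klf15-/- dexamethasone summits were 53.7 and 45.1 kb away. Of sites of both wild-type lists with a lower percentile between 40 and 60, 12.1% lacked a Klf15-/- dexamethasone summit. At a lower percentile of at most 20, the share was 27.7%. Chromosome 11 made up similar shares of the lists, 5.27% and 5.10% of the wild-type and 5.29% and 5.45% of the Klf15-/- dexamethasone summits. A site 24.3 kb downstream was at 50.6 and 57.8 in wild type and in a single Klf15-/- list, at 1.22. The highest Klf15-/- percentile of the window, 63.9, was 4.80 kb from the point and in a single list.

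Nr1d2, the gene of REV-ERBβ, had a weak window. The site 33.0 kb downstream of the point, at 19037017 to 19037018 on chromosome 14, was in both Klf15-/- dexamethasone lists at percentiles 36.2 and 14.8. The nearest wild-type dexamethasone summit was 258 kb away. Among sites of both Klf15-/- lists with a lower percentile of at most 20, 45.8% lacked a wild-type dexamethasone summit. Chromosome 14 made up 3.94% and 3.88% of the Klf15-/- dexamethasone summits and 3.35% and 3.41% of the wild-type ones; its part in the Nr1d2 site was not tested. The only other site was in the wild-type vehicle list, at percentile 9.48 and 3.35 kb from the point. Of these paralogues, Nr1d1 had a site in all 4 dexamethasone lists and Nr1d2 had none; the difference was not tested. The Nr1d1 count of 1 was 0 with summits above the median score of their list, 0 with lists of equal length, and 2 without the first Klf15-/- dexamethasone library.

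Bhlhe40, a repressor gene of the accessory loop, had 11 sites, and RefSeq lists no other protein-coding gene within 100 kb of it. The site nearest the point of the 4 held by all dexamethasone lists was 8.58 kb above it, at 108618556 to 108618611 on chromosome 6. It had percentiles 69.3 and 75.5 in wild type, 78.0 and 71.3 in Klf15-/- and 62.7 in wild-type vehicle. The site 21.3 kb below the point, at 108588688 to 108588704, had no vehicle summit and stood at 43.1 and 60.6 in the wild-type lists and at 68.5 and 50.4 in the Klf15-/- lists. Its summits fell within 17 bp. The site 92.5 kb above, at 108702454 to 108702501, had none either and stood at 87.3 and 74.1 in the wild-type lists and 74.1 and 59.8 in the Klf15-/- lists. The site 90.6 kb below was in 6 of the 7 lists, absent from wild-type vehicle, with its dexamethasone percentiles between 9.99 and 44.2. The genotypes overlapped in percentile at 3 of these 4 sites; at the site 92.5 kb above, the wild-type lists were higher by a narrow margin.

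Bhlhe40 also had the site with the widest spread between lists. At 108642999 to 108643155, 33.1 kb above the point, it stood at 88.5 and 65.9 in the Klf15-/- dexamethasone lists and at 31.7 in Klf15-/- vehicle library 2. Of the wild-type lists it was in dexamethasone library 2 alone, at 5.86. Another site, 78.7 kb above, was at 6.24 in a Klf15-/- dexamethasone list and at 76.7 in its replicate, a spread of 70.5 between replicates against 82.7 over the lists of the site before. A site of the first Klf15-/- vehicle list at percentile 72.9, 24.3 kb below the point, was in no other list.

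**Figure D3:**
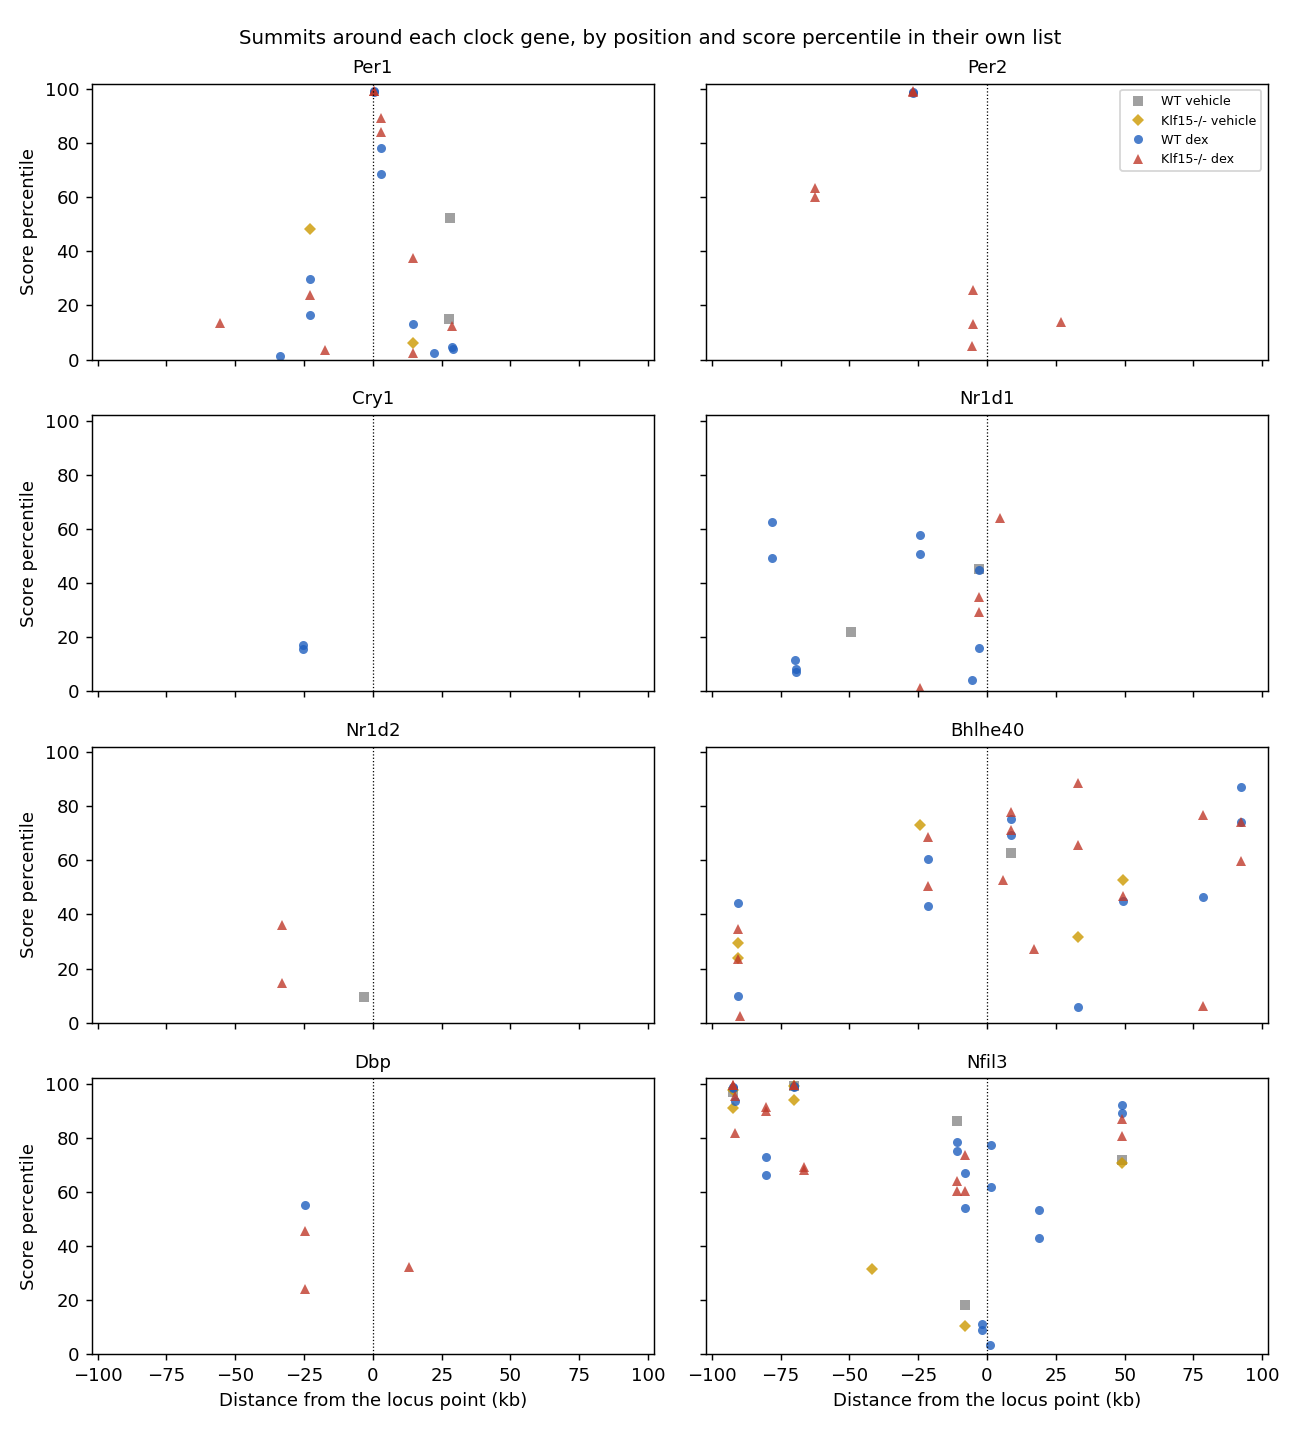
Each panel is a locus, with the distance from its point in kb across and the score percentile within the list up; squares are wild-type vehicle, diamonds Klf15-/- vehicle, circles wild-type dexamethasone and triangles Klf15-/- dexamethasone. Per1, Per2 and Nfil3 show tight groups of dexamethasone symbols above percentile 98, and Cry1, Nr1d2 and Dbp hold 1 or 2 sites. All loci but Cry1 and Nr1d2 have sites on both sides of the point.

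Dbp, an activator of D-box genes, had no vehicle summit within 1290 kb of either of its sites. The site 24.5 kb upstream of the point, at 52935475 to 52935530 on chromosome 7, was in 3 dexamethasone lists. Its percentiles were 55.3 in wild-type library 2 and 45.5 and 24.0 in Klf15-/-. The other site lay 13.3 kb downstream and was in a single Klf15-/- list, at percentile 32.1. Chromosome 7 made up 4.23% and 4.32% of the Klf15-/- dexamethasone summits and 3.70% and 3.75% of the wild-type ones; its part in the Dbp counts was not tested. RefSeq lists 16 other protein-coding genes within 100 kb of Dbp, the most of the 8.

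Nfil3, the repressor of D-box genes, had the densest window and the only clock sites held by all 7 lists. The site 70.0 kb downstream of the point, at 53009954 to 53010079 on chromosome 13, had percentiles 99.1 in wild-type vehicle, 93.9 and 99.3 in Klf15-/- vehicle, 98.9 and 99.2 in wild-type dexamethasone and 99.7 and 99.5 in Klf15-/- dexamethasone. The site 92.5 kb downstream, at 52987428 to 52987662, had 96.9, 91.1 and 97.6 in the same order of vehicle lists, and 98.5 to 99.6 with dexamethasone. These sites are far from the start point, on the side of Auh, the next protein-coding gene. No control library was used here, so receptor occupancy without ligand and background signal cannot be told apart here.

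Between these lay a site seen with dexamethasone only, 80.4 kb downstream at 52999496 to 52999621, with 73.1 and 66.4 in the wild-type lists and 91.5 and 89.8 in the Klf15-/- lists. A site 91.7 kb downstream was in 3 dexamethasone lists, at 93.7, 95.3 and 81.9, and missing from wild-type library 1; a vehicle summit lay 0.694 kb away. Nearer the gene, the site 10.9 kb downstream had 86.2 in wild-type vehicle, 75.1 and 78.4 in wild-type dexamethasone and 64.1 and 60.4 in Klf15-/- dexamethasone. The site 7.82 kb from the point had 18.2 in wild-type vehicle, 10.4 in Klf15-/- vehicle library 1 and 54.2 to 73.6 with dexamethasone. The site 48.9 kb upstream had 71.8 and 70.5 in the 2 vehicle lists that held it and 80.8 to 92.3 with dexamethasone. The Nfil3 sites thus covered the whole range, from a summit in all vehicle lists to summits with dexamethasone only.

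The 3 sites nearest the Nfil3 point were in wild-type dexamethasone lists only. The site 1.4 kb from it, at 53081362 to 53081439, had percentiles 77.3 and 61.9 in wild type, and the nearest Klf15-/- dexamethasone summit was 9.13 kb away. Among all sites of both wild-type lists with a lower percentile between 60 and 80, 5.23% lacked a Klf15-/- dexamethasone summit. The site 18.8 kb upstream was also in both wild-type lists alone, at 43.1 and 53.2. For a lower percentile between 40 and 60, that share was 12.1%. Of the other sites nearest the point, that at 1.81 kb had 9.09 and 11.3, and that at 0.944 kb was in a single wild-type list at 3.33. Among sites of both wild-type lists with a lower percentile of at most 20, 27.7% lacked a Klf15-/- dexamethasone summit. Chromosome 13 made up 6.10% and 6.18% of the wild-type dexamethasone summits and 5.78% and 5.83% of the Klf15-/- ones, and its part in these counts was not tested. In the reverse direction, a site 66.7 kb downstream was in both Klf15-/- lists at 69.1 and 68.2, with a wild-type summit 3.30 kb away. Of Klf15-/- sites in the same percentile range, 12.3% lacked a wild-type summit. Nfil3 was the single locus with restricted sites in both directions.

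Dependence on ligand was next counted over all 8 loci. Both wild-type dexamethasone lists held 22 clock sites, of which 13 had no vehicle summit (59.1%, 36.4 to 79.3%), against 38.5% of such sites in the genome. Both Klf15-/- dexamethasone lists also held 22, of which 12 had none (54.5%, 32.2 to 75.6%), against 43.2%. Of the 14 sites of all 4 lists, 8 had a vehicle summit (57.1%, 28.9 to 82.3%), against 69.1%. Each genome value lies within the interval of the clock share, and the sites are few. The intervals treat sites as independent, although these cluster in 8 windows and come from the same libraries. Whether the clock shares differ from the genome was therefore not decided. The Klf15-/- count of 12 was 22 without the second Klf15-/- dexamethasone library, when a single list sufficed. The share of 57.1% fell to 35.7% without the wild-type vehicle library. Leaving out a vehicle list can lower this share by construction, and the matching genome share is not given here.

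Genotype-restricted sites made up 9 of the 55. Of the 22 wild-type sites, 6 had no Klf15-/- dexamethasone summit (27.3%, 10.7 to 50.2%), against 12.8% in the genome: 3 at Nfil3, 2 at Nr1d1 and 1 at Cry1. Of the 22 Klf15-/- sites, 3 had no wild-type summit (13.6%, 2.91 to 34.9%), against 23.2%: 1 each at Per2, Nr1d2 and Nfil3. Both genome shares lie within these intervals, which again treat clustered sites as independent. None of these 9 had a vehicle summit, but the matching share over the genome was not computed. The count therefore cannot be read as a trait of the clock sites. With 2 libraries against 2, an exact permutation test cannot go below p = 0.333, so no test is given. The count of 9 was 16 without the second wild-type dexamethasone library and 20 without the second Klf15-/- one. Per1, Bhlhe40 and Dbp had no site restricted to a genotype in both replicates.

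At the 14 sites of all 4 lists, both Klf15-/- percentiles were above both wild-type ones at 5, against 33.8% in the genome. Both wild-type ones were above at 3, against 20.2%, and the genotypes overlapped at 6. These shares are near the background, and the Klf15-/- lists are longer. The leading Per1 site was among those that overlapped, and the leading Per2 site was higher in Klf15-/- by less than 1 percentile.

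**Figure D4:**
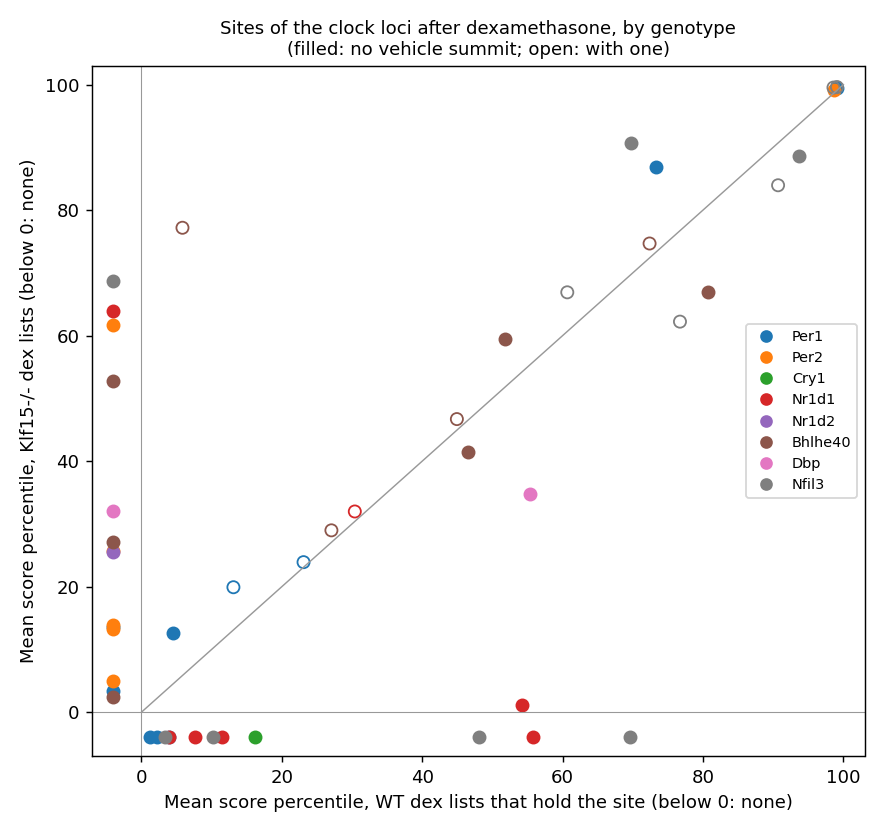
Each point is a clock site held by at least 1 dexamethasone list, with the mean percentile over the wild-type lists that hold it across and over the Klf15-/- lists up; points below 0 on an axis had no summit in that genotype. Filled points had no vehicle summit. The Per1 and Per2 leaders and the 2 Nfil3 sites of all lists meet in the top right corner, and the Nfil3 site at 69.6 and the Nr1d1 site at 55.8 are the highest of those without a Klf15-/- summit.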

How the data were processed

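Receptor ChIP-seq was carried out in 7 libraries of mouse embryonic fibroblasts. Per the submitters' processing notes, CASAVA 1.4, Bowtie2 and SAMtools were used with the build mm9. Which peak caller was run, with what control and cut-off, is not given in the sources used here. The deposited files each list the 1-bp summits of 1 library with the authors' score, on a scale that is not stated. Samples were grouped by title.

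Scores were turned into percentiles within a list (ties at their mean rank). Where a list had several summits in a site, the highest counted. Summits of all 7 lists were linked at a gap of 200 bp, and a site belonged to a locus when its midpoint was within 100 kb of the point. All summit coordinates are mm9, counted from 1. Intervals are exact (Clopper-Pearson) and treat sites or summits as independent. Upstream and downstream follow the strand in the RefSeq promoter table. No annotation of mm9 was given, so sites were not placed in exons or introns, and other clock genes are not analysed here. RefSeq (GRCm38.p6) was used for gene order and promoter sequences only.

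Described in full were, per locus, each site of all 4 dexamethasone lists or of both lists of 1 genotype and neither of the other, and failing these the site in most dexamethasone lists; other sites named were picked after their values were seen. The genes and rules were chosen with earlier results of these data known. Alternatives were other gaps, windows, score and vehicle filters, lists of equal length, each library left out, and same-numbered pairs. Linkage and classes were tested on simulated lists. Tools were matplotlib 3.10.9, scipy 1.17.1, pandas 2.3.3 and numpy 2.4.6 under Python 3.11.15.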

Additional observations from a re-analysis of the deposited data

Results flagged for a closer look

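At the Nr1d2 locus, summits per 1000 were lower with dexamethasone in both wild-type libraries and higher in both Klf15-/- libraries. The change was -0.0997 in wild type and 0.0498 in Klf15-/-. It rests on 1 summit in the wild-type vehicle list and 1 in each Klf15-/- dexamethasone list, and the difference was not tested. No group had enough libraries to look for an outlying one.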

How the results depend on the processing

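The alternatives gave 253 values, of which 223 kept within their bounds and 30 moved. Only the difference in summits per 1000 has a sign that can reverse, and it did not. The counts, shares and percentiles have no sign. In windows of 25 kb there were 27 sites, 7 of all 4 dexamethasone lists, 7 wild-type and 4 Klf15-/- sites without a vehicle summit, and 3 restricted to a genotype. The leading Per2 site lies outside these windows. In windows of 50 kb there were 9 of all 4 lists, 6 Klf15-/- sites without a vehicle summit and 5 restricted to a genotype. The summits per 1000 gave p = 0.114 (exact permutation test, difference 0.455). This is above the smallest p of 0.0571, because vehicle and dexamethasone values overlapped in these windows. With summits above the median score there were 27 sites, 8 wild-type sites without a vehicle summit and 5 restricted to a genotype. With lists of equal length there were 28 sites, 8 of all 4 lists, 6 without a vehicle summit in wild type and 6 in Klf15-/-, and 3 restricted to a genotype. Smaller windows and shorter lists hold fewer sites by construction.

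Leaving out each library in turn gave 46 to 55 sites, 14 to 18 of all dexamethasone lists, 13 to 19 wild-type and 12 to 22 Klf15-/- sites without a vehicle summit, 9 to 20 restricted to a genotype, and 35.7% to 60% of shared sites with a vehicle summit. The difference in summits per 1000 was 0.583 to 0.744. A genotype left with 1 list need not repeat its sites, which raises its counts. With the replicate block, the 3 same-numbered pairs gave a difference of 0.583, higher with dexamethasone in 3 of 3 pairs (exact sign-flip test, p = 0.25, the smallest it allows). The numbers are only names in the labels. The depth of the libraries is unknown, so a missing summit does not show missing occupancy.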
